A study of Mus musculus with 10 samples.

Results

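The genes described here encode the oxidative phosphorylation machinery of mitochondria, in the nuclear and in the mitochondrial genome. Members were the protein-coding genes with symbols that begin with Nduf, Uqcr, Atp5 or Cox and a digit, together with Sdha to Sdhd, Cyc1, Cycs and the mitochondrial genes for subunits of complexes I, III, IV and V. The rule found 118 genes among the 54532 in the count table, and it used no measured value. Of these, 105 lie in the nuclear and 13 in the mitochondrial genome. The nuclear members comprise 84 subunits, 18 assembly factors, cytochrome c (Cycs), and 2 others, Ndufa4l2 and Atp5s. A gene was tested when at least 5 libraries held 10 or more counts, which 113 members and 18061 genes passed. The 5 members that did not pass, Cox6a2, Cox7b2, Cox8b, Cox8c and the second of the 2 Ensembl genes named Atp5o, had at most 5 counts in any library.

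Messenger RNA was sequenced from the soft cochlear tissue of female mice on postnatal day 1. The control group, Esrrgfl/fl, had 5 animals with both copies of Esrrg floxed. The other group, Esrrgfl/fl;Sox10-Cre, had 5 animals with the same floxed alleles and the Cre recombinase under Sox10 control; it is labelled cKO, for conditional knockout. Sox10 is active in the otic epithelium, in glia and in melanocytes. Which cells of the tissue carried the deletion was not measured. No group carried Sox10-Cre without the floxed alleles, and an effect of the transgene cannot be told apart from an effect of the deletion. Each library held both cochleae of 1 animal, so p-values measure the spread between animals.

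The libraries held 33.5 to 41.8 M counts (M, mega). Esrrg, the targeted gene, was higher in the libraries labelled cKO, at 89.6 ± 15.2 CPM against 58.4 ± 6.64 CPM (SD, n = 5 each), with a log2 fold change of 0.62 (SE 0.118) and an edgeR adjusted p of 0.0292. CPM are counts scaled to a library total of 1000000. Since this goes against the label, and a count over the whole gene does not show the loss of an exon, the group is called the libraries labelled cKO, and each direction depends on that label. Control 2 stood apart from the other controls for the members, as described below, and values without it are given beside the members' results. For Esrrg the log2 fold change without it was 0.55, at an edgeR adjusted p of 0.0217. Markers of the cochlea were present in all libraries: the tested hair cell list of 10 genes summed to 156 to 287 CPM and the list of 10 stria marginal cell genes to 972 to 1332 CPM.

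Oxidative phosphorylation passes electrons from NADH (complex I) and succinate (complex II) through complex III and cytochrome c to oxygen at complex IV. The protons pumped on the way drive ATP synthase, complex V. Complexes I, III, IV and V combine subunits from both genomes, complex II is wholly nuclear, and assembly factors help to build the complexes without staying in them. The estrogen-related receptors, to which Esrrg belongs, bind regulatory DNA of many nuclear genes of this machinery together with the coactivator encoded by Ppargc1a; the factors NRF1 and GABP do so as well. The cochlea relies on this machinery in the stria vascularis, in hair cells and in neurons, all cells with heavy ion transport.

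Since these 3 factors have well known recognition sequences, the promoters of the members were searched for them. RefSeq promoters (GRCm38.p6, the 250 bases before the start site) were matched for 84 of the 105 nuclear members and for 16514 protein-coding genes. The estrogen-related receptor element TNAAGGTCA was sought on both strands and occurred in 2 member promoters (2.38%) and in 1.13% of all promoters. The NRF1 element, GCGC and TGCGC around 1 free base, occurred in 14 member promoters (16.67%), against 6.05% of all, and in 13 of 67 subunit promoters but 1 of 15 assembly factor promoters. The GABP element CCGGAAGT occurred in 5 (5.95%), against 4.46% of all. A match describes these letters in this window, and no site of binding was measured. The sites below belong to the only members with a receptor element and to members that recur in the results; each is printed 5′ to 3′ along the gene's strand, with the element in capitals on whichever strand it matched.

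Atp5g3, receptor element, chr2:73911360-73911388, minus strand: tgttacaaagTGACCTTGAgcgtcttccc
Ndufb4, receptor element, chr16:37654407-37654435, minus strand: ttcctgagccTGAAGGTCAgactcgagag
Atp5k, NRF1 element, chr5:108434430-108434459, minus strand: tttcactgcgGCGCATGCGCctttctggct
Ndufa5, NRF1 element, chr6:24527697-24527726, minus strand: tgtgtgagctGCGCAGGCGCaaatctacct
Sdhd, NRF1 element, chr9:50603909-50603938, minus strand: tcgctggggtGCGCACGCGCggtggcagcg
Uqcr11, GABP element, chr10:80406870-80406897, minus strand: tctctcctccCCGGAAGTagatgtcaat

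Ndufb4 also held 3 NRF1 elements, none of which overlapped its receptor element. Both genes with a receptor element differed little from their complexes: the log2 fold change was -0.29 (SE 0.118) for Atp5g3 and -0.31 (SE 0.140) for Ndufb4, at edgeR adjusted p of 0.456 and 0.504. Without control 2 they were -0.16 and -0.19. For Atp5g3, a proton-carrying c subunit of ATP synthase, the controls 1 to 5 held 214.5, 323.0, 232.6, 223.1 and 201.5 CPM. Those labelled cKO held 207.2, 214.9, 193.3, 187.3 and 174.0 CPM. Control 2 was the highest library, and the groups overlapped.

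Levels between genes were compared in FPKM, the CPM of sequenced fragments divided by the length of the gene in kilobases. Nuclear subunits had a median level of 45.2 FPKM over the 79 tested, from 1.58 for Ndufb2 to 341 for Cox8a. The exons of Ndufb2 overlap those of Braf and Gm16272 on the opposite strand and of Gm42420 on the same strand. Its FPKM rests on a length of 5644 bp, and its level is uncertain. Assembly factors were lower, with a median of 6.92 FPKM, and the highest were Cox7a2l, which joins complexes III and IV into supercomplexes, at 186 FPKM, and Cox14 at 60.5 FPKM. By complex, the median level was 37.3 FPKM for nuclear subunits of complex I, 49.6 for complex II, 60.2 for complex III, 69.7 for complex IV and 52.9 for complex V. Among nuclear subunits, the most abundant of complex I was Ndufa2, at 117 FPKM, and that of complex II the membrane anchor Sdhd, at 92.4. That of complex III was Uqcr10, at 104, and that of complex V the alpha subunit Atp5a1, at 256.

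All 79 tested nuclear subunits had a lower fitted level in the libraries labelled cKO, by small amounts. Their median log2 fold change was -0.28, a difference of -17.6%, with a range of -0.66 to -0.01. Over all tested genes the median was -0.01, and 52.3% lay below 0. None of the 113 tested members passed an edgeR adjusted p under 0.05, against 0.615% of all tested genes in either direction and 0.543% in the lower one. At an unadjusted p under 0.05, 37 of the 79 subunits were lower and 0 higher, where 5.62% of all tested genes were lower. Members share their libraries, so these counts do not add up to independent evidence, and no test was made of the list.

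Much of the size of this difference came with control 2. Without it the median over the subunits was -0.14, a difference of -8.94%, and 77 of 79 lay below 0, against 51.6% of all tested genes. Again 0 members passed the adjusted threshold, against 1.08% of all tested genes, and 20 of 79 subunits were lower at an unadjusted p under 0.05, against 6.32%. The number at an unadjusted p under 0.05 was also smaller without cKO 3, at 9 against 5.25% of all tested genes, without cKO 4, at 13 against 4.54%, and without cKO 5, at 6 against 4.23%, while the median stayed between -0.28 and -0.23 in these fits. Of the 79 subunits, 77 had a log2 fold change below 0 in each of the 10 fits with 1 library left out.

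The level per library shows the same. Averaged over the 79 subunits, log2 CPM was 6.07, 6.76, 6.22, 6.17 and 6.06 in controls 1 to 5. The libraries labelled cKO stood at 6.12, 6.14, 5.95, 6.00 and 5.82. Control 2 was above all other libraries, cKO 3, 4 and 5 were below every control, and cKO 1 and 2 lay among controls 1, 3, 4 and 5.

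**Figure D1:**
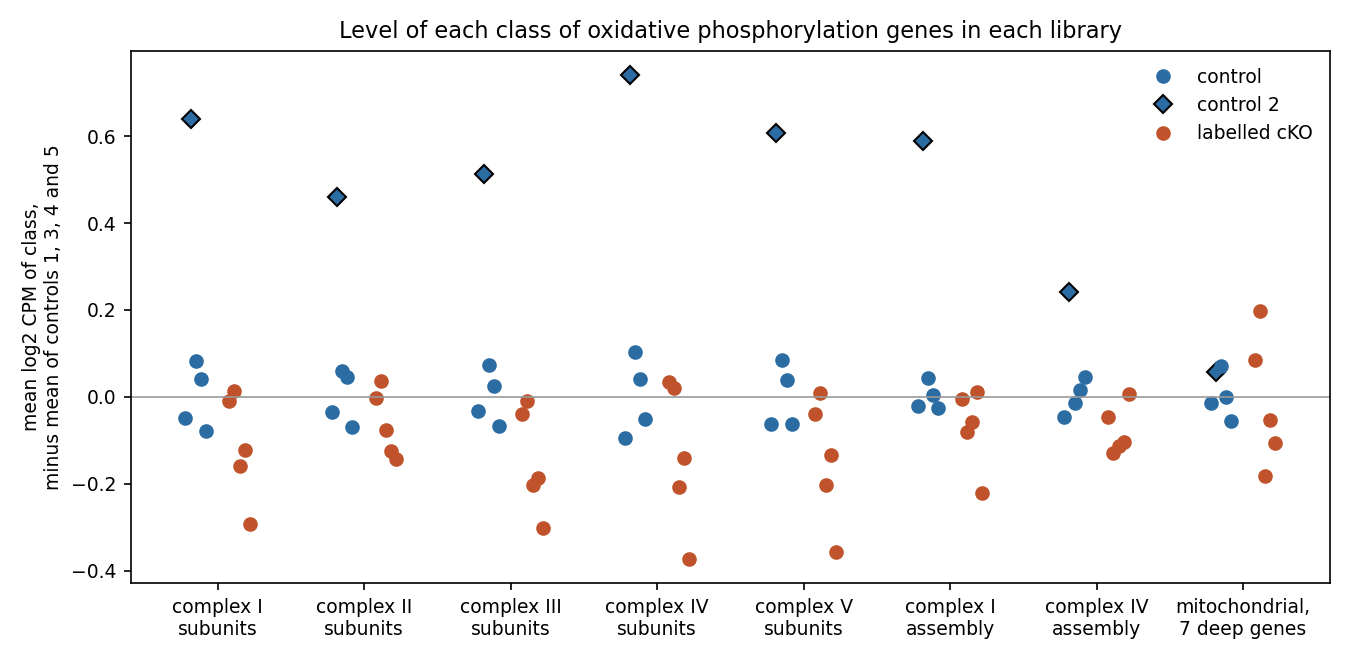
Mean log2 CPM of each class of oxidative phosphorylation genes in each library, minus the mean of controls 1, 3, 4 and 5; each point is 1 library, and the diamond is control 2. Control 2 stands 0.46 to 0.74 above the other controls for the subunits of the 5 complexes and 0.06 above them for the 7 mitochondrial genes with deep counts.

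In complex I, which oxidises NADH, all 36 tested nuclear subunits were below 0, with log2 fold changes from -0.42 to -0.12 around a median of -0.28, and 13 reached an unadjusted p under 0.05. The fit without control 2 had a median of -0.11 and 6 such subunits. The 7 nuclear core subunits, which carry the redox centres, had a median of -0.19, and the 29 accessory subunits one of -0.29. Without control 2 these medians were -0.08 and -0.14. Ndufa5, an accessory subunit of the peripheral arm, had the lowest value of the complex. Its controls 1 to 5 held 37.2, 69.4, 41.6, 39.5 and 36.2 CPM, and the libraries labelled cKO 36.3, 37.6, 32.7, 34.1 and 26.5 CPM. Control 2 was far above the rest, cKO 5 was lowest, and the groups overlapped slightly. For Ndufa5 the fit gave a log2 fold change of -0.42 (SE 0.166), at an edgeR adjusted p of 0.445, and -0.21 (SE 0.0941) without control 2, with an adjusted p of 0.448.

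At the other end of complex I stood Ndufa10, an accessory subunit, with a log2 fold change of -0.12 (SE 0.0955), which was -0.03 without control 2. Ndufa2 held 61.6 to 117.5 CPM in the controls and 51.8 to 67.1 CPM in the libraries labelled cKO, and its log2 fold change of -0.31 (SE 0.164) became -0.09 without control 2. Its exons overlap those of Tmco6 on the opposite strand. Ndufs1, the largest core subunit and part of the NADH-oxidising module, was the only subunit of complex I with no overlap between the groups. Controls 1 to 5 held 90.1, 106.8, 98.3, 88.4 and 86.4 CPM, and the libraries labelled cKO 85.6, 79.7, 83.9, 84.7 and 80.0 CPM. The gap between the lowest control and the highest library labelled cKO was under 1 CPM. For Ndufs1 the fit gave a log2 fold change of -0.18 (SE 0.0743), at an edgeR adjusted p of 0.456, and -0.14 (SE 0.0590) without control 2. The exons of Ndufs1 overlap those of Eef1b2 and Ino80dos on the opposite strand.

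Complex II, succinate dehydrogenase, which also serves the citric acid cycle, had the median nearest to 0 of the 5 complexes: -0.16 over its 4 subunits, and -0.05 without control 2. Sdhb, the iron-sulphur subunit, had the lowest value. Its controls held 92.4, 147.8, 99.6, 101.3 and 90.3 CPM and the libraries labelled cKO 92.4, 98.0, 82.6, 83.5 and 81.3 CPM. Control 2 was the highest, and cKO 1 and 2 lay among the other controls. For Sdhb the fit gave a log2 fold change of -0.28 (SE 0.124), and -0.14 (SE 0.0686) without control 2, at edgeR adjusted p of 0.501 and 0.535. The catalytic flavoprotein Sdha differed least, at 238.1 ± 19.7 against 227.9 ± 6.21 CPM (SD, n = 5 each) and -0.06 on the log2 scale (SE 0.0728), which was -0.02 without control 2. For Sdhd the value was -0.17 (SE 0.108), and -0.05 without control 2.

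In complex III, the cytochrome bc1 complex, all 9 tested nuclear members were below 0, with a median of -0.29 (range -0.43 to -0.10), and 6 reached an unadjusted p under 0.05. The fit without control 2 had a median of -0.13 and 2 such subunits. Uqcrq, a small membrane subunit, showed no overlap between groups. Controls 1 to 5 held 77.9, 138.5, 89.7, 81.4 and 77.9 CPM, and the libraries labelled cKO 75.6, 77.3, 67.4, 66.0 and 64.3 CPM. The 2 highest libraries labelled cKO lay close under the lowest control. For Uqcrq the fit gave a log2 fold change of -0.41 (SE 0.144), and -0.23 (SE 0.0719) without control 2, at edgeR adjusted p of 0.356 and 0.212. Uqcr11, another small subunit, had the lowest value, -0.43 (SE 0.153), which was -0.25 (SE 0.0882) without control 2. The core protein Uqcrc2 had the highest, -0.10 (SE 0.0670), and -0.09 without control 2, from 134.9 ± 6.84 against 126.2 ± 6.30 CPM (SD, n = 5 each). Of the 79 tested nuclear subunits, Uqcrc2 was also the one for which control 2 stood out least, by 0.06 on the log2 scale over the other controls; its exons overlap those of Pdzd9. For Uqcr10 the value was -0.29 (SE 0.122), and -0.18 without control 2.

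Complex IV, cytochrome c oxidase, had the lowest median of the 5 complexes, -0.33 over 14 tested nuclear subunits, with 9 at an unadjusted p under 0.05. Without control 2 its median of -0.17 was again the lowest and the number was 6; whether the complexes differ from each other was not tested. Cox7c and Cox7b, small subunits of its membrane part, had some of the smallest p-values of all members. For Cox7c (ENSMUSG00000017778; GRCm38 chr13:86044816-86046904), controls 1 to 5 held 111.4, 202.8, 124.3, 117.0 and 117.7 CPM. In the libraries labelled cKO there were 110.7, 107.6, 86.2, 100.7 and 81.4 CPM. The groups did not overlap, but cKO 1 came within 1 CPM of control 1. For Cox7c the fit gave a log2 fold change of -0.47 (SE 0.155), and -0.28 (SE 0.0856) without control 2, at edgeR adjusted p of 0.317 and 0.188.

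For Cox7b (ENSMUSG00000031231; GRCm38 chrX:106015700-106022450), controls 1 to 5 held 65.6, 107.7, 77.3, 74.2 and 70.6 CPM. In the libraries labelled cKO there were 69.2, 62.7, 54.4, 58.8 and 47.0 CPM. Only cKO 1 reached the range of the controls, and cKO 5 was lowest. For Cox7b the fit gave a log2 fold change of -0.44 (SE 0.134), and -0.30 (SE 0.0952) without control 2, at edgeR adjusted p of 0.267 and 0.198. Under limma-voom with quality weights, which gives less weight to libraries that stand apart, Cox7b and the c subunit gene Atp5g1 of complex V passed the threshold, with adjusted p of 0.0346 and 0.0433. That tool called 2.36% of all tested genes, and 2.04% as lower, so 2 of 113 members is near this background.

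Some subunits of complex IV exist in alternative forms for different tissues. Cox4i2, the form induced in lung and by low oxygen, made up 1.58% to 2.54% of the Cox4 FPKM in controls and 2.08% to 2.88% in the libraries labelled cKO, and the rest was Cox4i1. Cox7a1, the form of heart and muscle, made up 2.43% to 4.75% and 2.08% to 3.71% of Cox7a1 and Cox7a2, and Cox6b2, a testis form, 3.43% to 3.91% and 3.77% to 4.49% of the Cox6b pair. The groups overlapped for all 3 shares. Cox7a1 rested on few counts, 0.704 to 3.41 CPM, and had the lowest log2 fold change of the complex, -0.57 (SE 0.330), which was -0.14 without control 2. Cox4i2 had the highest, -0.01 (SE 0.245), with 2.22 to 6.16 CPM in controls and 2.84 to 3.99 CPM in the libraries labelled cKO. Its direction turned without control 2, to 0.28 (SE 0.182), and with an offset for gene length, to 0.19. For Cox6b2 the log2 fold change was -0.16 (SE 0.145), and -0.02 without control 2. The most abundant nuclear subunit, the ubiquitous form Cox8a, stood at -0.23 (SE 0.112), and -0.13 without control 2, and the muscle forms Cox8b and Cox6a2 took at most 0.0439% and 0.0599% of the FPKM of their pairs.

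Ndufa4 was first assigned to complex I and is now counted with complex IV, and Ndufa4l2 is its paralogue induced by low oxygen. Ndufa4l2 took 5.43% to 6.37% of the FPKM of the pair in controls and 5.04% to 6.60% in the libraries labelled cKO, so the groups overlapped. Its log2 fold change was -0.34 (SE 0.167), and -0.17 without control 2; its exons overlap those of Shmt2.

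Cytochrome c, the mobile carrier between complexes III and IV, had the smallest adjusted p of all members. For Cycs (ENSMUSG00000063694; GRCm38 chr6:50562563-50566538), controls 1 to 5 held 61.9, 91.0, 72.1, 66.2 and 62.8 CPM. In the libraries labelled cKO there were 56.6, 55.3, 58.0, 55.7 and 43.9 CPM. Every library labelled cKO was below every control, with control 2 apart at the top and cKO 5 apart at the bottom. For Cycs the fit gave a log2 fold change of -0.39 (SE 0.113), at an edgeR adjusted p of 0.212, and -0.29 (SE 0.0829), with an adjusted p of 0.142, without control 2. Of the 150-base words in its transcripts, 19.9% also occur in Gm10053, an annotated gene on chromosome 19 with 9 to 27 counts per library.

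**Figure D2:**
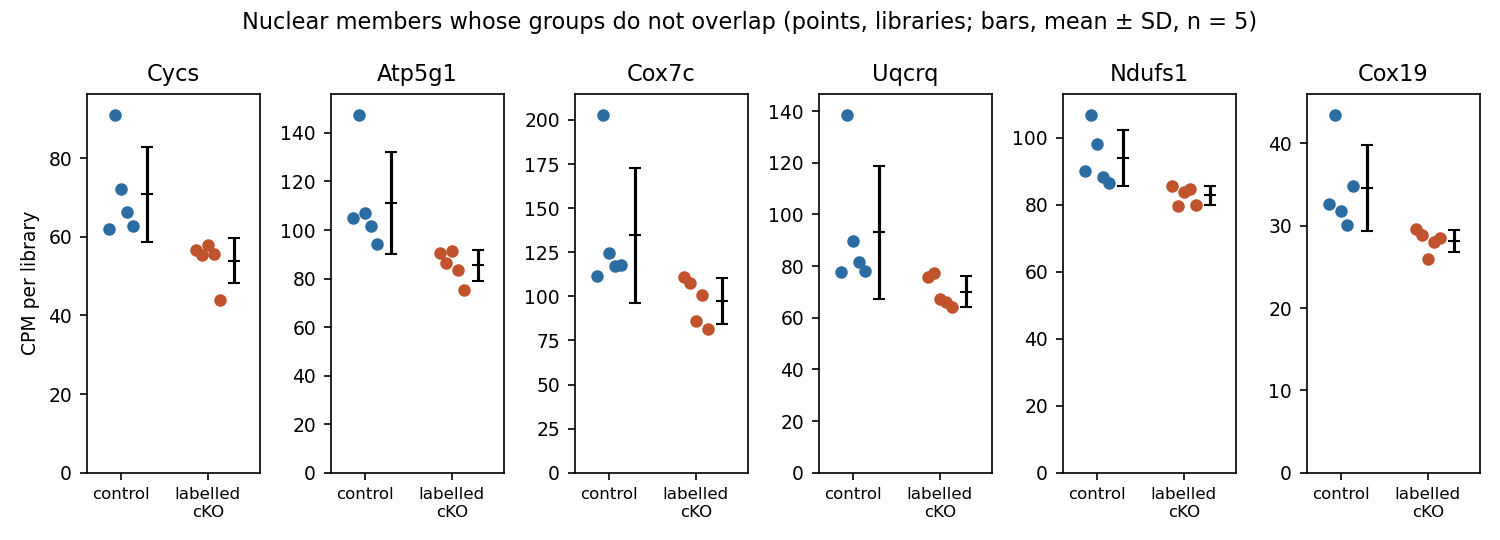
CPM per library (points; y axes start at 0) of the 6 nuclear members in which every library labelled cKO lay below every control, with the mean ± SD of each group (n = 5). Cycs spans 61.9 to 91.0 CPM in controls and 43.9 to 58.0 CPM in the libraries labelled cKO; in each gene control 2 is the highest point.

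In complex V, ATP synthase, all 16 tested nuclear subunits were below 0, with a median of -0.28 (range -0.66 to -0.08), and 8 reached an unadjusted p under 0.05. The fit without control 2 had a median of -0.14 and 6 such subunits. By part, the median was -0.19 for the 5 subunits of the F1 head, which makes ATP, -0.28 for the 4 of the peripheral stalk, -0.29 for the 3 genes of the c ring and -0.40 for the 4 small membrane subunits. In the same order they were -0.09, -0.13, -0.16 and -0.19 without control 2. Atp5k, the small membrane subunit e, had the lowest value of all nuclear members. Controls 1 to 5 held 18.9, 43.4, 26.1, 23.3 and 22.6 CPM, and the libraries labelled cKO 21.9, 19.8, 14.95, 18.6 and 9.88 CPM. The groups overlapped through control 1. For Atp5k the fit gave a log2 fold change of -0.66 (SE 0.230), and -0.42 (SE 0.191) without control 2, at edgeR adjusted p of 0.355 and 0.486. Atp5a1, the alpha subunit of the head, differed least, at 829.2 ± 70.0 against 783.3 ± 53.0 CPM (SD, n = 5 each) and -0.08 on the log2 scale (SE 0.0834), which was -0.04 without control 2.

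The c ring, through which protons pass, is encoded by 3 genes for the same mature protein. For Atp5g1 (ENSMUSG00000006057; GRCm38 chr11:96068852-96075670), controls 1 to 5 held 104.8, 147.4, 107.2, 101.6 and 94.3 CPM. In the libraries labelled cKO there were 90.6, 86.3, 91.5, 83.6 and 75.4 CPM. The groups did not overlap with or without control 2. For Atp5g1 the fit gave a log2 fold change of -0.38 (SE 0.111), at an edgeR adjusted p of 0.229. Without control 2 it was -0.26 (SE 0.0675), with an adjusted p of 0.0975, the smallest of all members in that fit. Atp5g2, by comparison, stood at -0.11 on the log2 scale (SE 0.0930), and at -0.04 without control 2. Atp5g1 made up 11.4% to 12.2% of the c ring FPKM in controls and 9.72% to 11.7% in the libraries labelled cKO, Atp5g3 54.7% to 58.9% and 54.2% to 55.7%, and Atp5g2 the remainder.

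In all, 6 of 100 tested nuclear members showed no overlap between the groups, each lower in the libraries labelled cKO: Ndufs1, Uqcrq, Cox7c, Atp5g1, Cycs and the assembly factor Cox19. Over all tested genes 1.66% were lower and 1.13% higher without overlap. Of the 79 subunits 4 were, and also 4 without control 2, where the share of all tested genes was 2.94%.

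**Figure D3:**
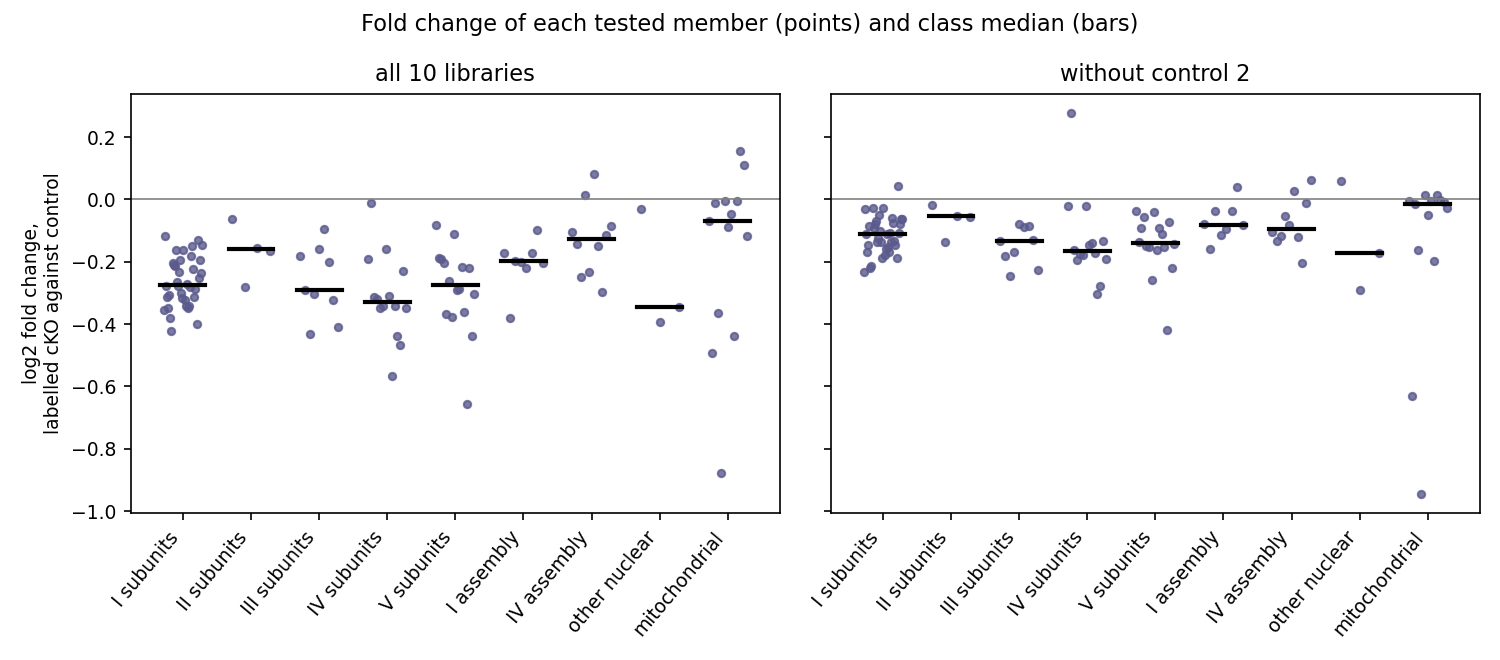
Log2 fold change (y axis) of each tested member, libraries labelled cKO against controls, by class (x axis; points are genes, bars are medians), with all 10 libraries on the left and without control 2 on the right. The median of the complex I subunits moves from -0.28 to -0.11 and that of the mitochondrial genes from -0.07 to -0.01.

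The 18 assembly factors, all tested, had a median of -0.17 with 16 below 0 and 2 at an unadjusted p under 0.05. Their median moved to -0.08 when control 2 was left out, with 15 below 0. The 8 factors of complex I had a median of -0.20 and the 10 of complex IV one of -0.13; without control 2 they were -0.08 and -0.09, in the opposite order. Cox19, which helps to deliver copper to complex IV, was the lowest of the latter. Controls 1 to 5 held 32.7, 43.4, 31.8, 30.1 and 34.9 CPM, and the libraries labelled cKO 29.6, 28.8, 26.0, 28.01 and 28.5 CPM. The groups were separate, though by under 1 CPM. For Cox19 the fit gave a log2 fold change of -0.30 (SE 0.1004), and -0.20 (SE 0.0730) without control 2, at edgeR adjusted p of 0.335 and 0.296.

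Cox17, the copper chaperone upstream of it, was the highest, at 0.08 (SE 0.244), with 1.80 to 3.16 CPM in controls and 1.89 to 4.31 CPM in the libraries labelled cKO. Its direction turned without cKO 5, to -0.17, and its exons overlap those of Gm21987 on the same strand. Cox7a2l held 193.1 to 308.2 CPM in controls and 188.4 to 242.1 CPM in the libraries labelled cKO. Its log2 fold change was -0.09 (SE 0.127), and 0.06 (SE 0.0700) without control 2. Among factors of complex I, Ndufaf2 had the lowest value, -0.38 (SE 0.178), which was -0.16 (SE 0.109) without control 2; its exons overlap those of the noncoding gene B230220B15Rik. Ndufaf7, which methylates a core subunit, had the highest, -0.10 (SE 0.129), and this turned to 0.04 without control 2. The most abundant of them, Ndufaf8, stood at -0.20 (SE 0.138), and -0.08 without control 2. A wider list of 33 tested assembly factors with other symbols had a median of -0.13, with 30 below 0, 5 at an unadjusted p under 0.05 and 0 past the adjusted threshold, and a median of -0.05 without control 2.

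The 13 mitochondrial genes gave a different picture. Their median log2 fold change was -0.07, with 11 below 0, and -0.01 without control 2. They also fell into separate depth classes: mt-Co1, mt-Cytb, mt-Nd1, mt-Nd5, mt-Nd6, mt-Nd2 and mt-Nd4 stood at 1076 to 5036 FPKM, whereas mt-Co2, mt-Co3, mt-Atp6, mt-Nd4l, mt-Nd3 and mt-Atp8 stood at 2.49 to 35.2 FPKM. These genes are read from shared precursor RNAs, so the gap was set against sequence. For 5 of the 6 low genes, 97.0% to 99.8% of the 150-base words in the transcript also occur in a pseudogene on chromosome 1, a nuclear copy of mitochondrial DNA. The share was 59.2% for mt-Nd4 and 23.6% for mt-Co1, and 0 for the other genes. Mt-Atp8 had no such word and still stood at 2.49 FPKM, and it overlaps mt-Atp6. The search covered annotated transcripts only. Mt-Atp8 follows mt-Co2 and runs into mt-Atp6, and the stretch between the copies of these neighbours on chromosome 1 was not searched. A copy of mt-Atp8 there would have been missed.

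The copies were counted in every library. Gm28437, the copy of mt-Co3, held 701 to 1253 counts, and Gm28661, the copy of mt-Co2, 719 to 1929 counts. The copy of mt-Co3 is identical to it over 783 of 784 bases in 1 unbroken run, and that of mt-Co2 over 681 of 684. Printed here are the first 60 bases of both, from the GENCODE M21 transcripts on GRCm38, to show that a read from either locus carries the same letters.

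mt-Co3, chrM:8607-9390, plus strand, first 60 bases: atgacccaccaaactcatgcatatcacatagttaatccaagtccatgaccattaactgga
Gm28437, chr1:24613189-24613971, first 60 bases: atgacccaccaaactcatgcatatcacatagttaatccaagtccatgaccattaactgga

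Reads of these 5 genes cannot be assigned to one locus by sequence, and their values are uncertain. The level of the 7 deep genes can be read with less doubt.

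**Figure D4:**
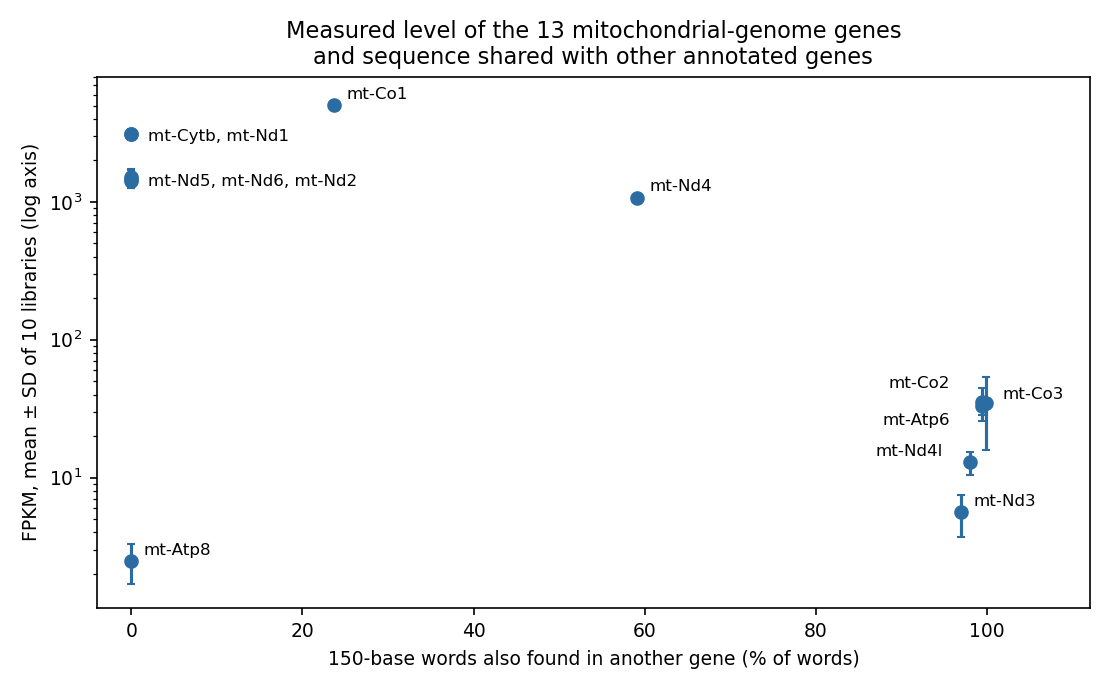
Mean ± SD over the 10 libraries of the FPKM of each mitochondrial gene (y axis, log scale) against the share of its 150-base words that also occur in another annotated gene (x axis, %). The 5 genes with shares of 97.0% to 99.8% lie between 5.58 and 35.2 FPKM and the 7 deep genes, with shares up to 59.2%, between 1076 and 5036 FPKM; mt-Atp8, at 0%, is low as well, and the points of mt-Nd1 and mt-Cytb coincide.

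Among the deep genes, 6 of 7 were below 0 with all libraries, and the range was -0.12 to 0.11; without control 2 it was 5 of 7, with a range of -0.05 to 0.01. For mt-Co1, a catalytic core subunit of complex IV, controls 1 to 5 held 8000, 7870, 8085, 7600 and 7729 CPM. The libraries labelled cKO held 8188, 9020, 6995, 7403 and 7393 CPM. The libraries labelled cKO spread on both sides of the controls, and control 2 was among the other controls. For mt-Co1 the fit gave a log2 fold change of -0.01 (SE 0.0897), at an edgeR adjusted p of 0.976, and -0.01 (SE 0.0725) without control 2. For mt-Cytb, the only mitochondrial subunit of complex III, the log2 fold change was -0.00487 (SE 0.0923), and 0.0132 without control 2. Mt-Nd5, of the membrane arm of complex I, held 1779 CPM in control 2 against 2782 to 2971 CPM in the other controls, the opposite of the nuclear subunits, and its value of 0.11 (SE 0.135) became -0.00739 without control 2.

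Among the genes with a copy, mt-Co3 had the lowest value of all members. Controls 1 to 5 held 52.1, 29.2, 57.3, 19.5 and 20.2 CPM, and the libraries labelled cKO 19.1, 27.5, 15.9, 19.3 and 15.4 CPM. Controls 1 and 3 were high, control 2 lay just above the highest library labelled cKO, and controls 4 and 5 lay within the range of that group. For mt-Co3 the fit gave a log2 fold change of -0.88 (SE 0.294), at an edgeR adjusted p of 0.333, and -0.95 (SE 0.388) without control 2. Its copy on chromosome 1 held 953, 1253, 722, 761 and 868 counts in controls 1 to 5, not scaled to the library total. Mt-Nd4l, with 2.03 to 4.58 CPM, had the highest value, 0.15 (SE 0.190), and -0.0017 without control 2, which was its lowest library.

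The balance between the genomes was described by the mean log2 CPM of the 79 nuclear subunits minus that of the 7 deep mitochondrial genes. It was -5.10, -4.49, -5.04, -5.02 and -5.07 in controls 1 to 5, and -5.15, -5.24, -5.05, -5.14 and -5.26 in the libraries labelled cKO. Control 2 was far from all other libraries, 4 of 5 libraries labelled cKO lay below every control, and cKO 3 lay among the controls. With an offset for gene length, fitted per library, the median of the nuclear subunits was -0.17 and that of the 7 deep genes 0.07, so the direction of the mitochondrial genes depended on this choice. The contrast between the genomes was not tested.

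Control 2 differed from the other controls in a way that tracked gene length, and the members are short. The median length implied by counts and FPKM was 1680 bp for the nuclear subunits, 2269 bp for assembly factors and 4271 bp for all tested genes. For 96.4% of genes with 50 or more counts in every library, this length lay within 5% of all annotated exons merged. Such a length can exceed that of the transcripts present, which was not measured. The bands of length and the length offset use it. Across 15580 genes, a correlation of the deviation from the group mean with log2 length was -0.49 in control 2 and between -0.22 and 0.24 in the other libraries; genes of 1 library share its depth, so this is a description. Control 2 was the highest of the 10 libraries for 78 of 79 nuclear subunits and for 27.5% of all tested genes. It stood 0.64 above the other controls on the log2 scale for the median subunit, against -0.0034 for the median tested gene.

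Within bands of the implied length, which need not be that of the transcripts present, the nuclear subunits still stood above other genes in control 2. Under 1000 bp, the median difference from the other controls was 0.71 for 20 subunits and 0.55 for 578 other genes. From 1000 to 2000 bp it was 0.69 for 29 subunits and 0.42 for 1713 other genes, and from 2000 to 4000 bp 0.52 for 19 and 0.16 for 4801. Over 4000 bp it was 0.49 for 11 subunits and -0.21 for 8376 other genes.

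**Figure D5:**
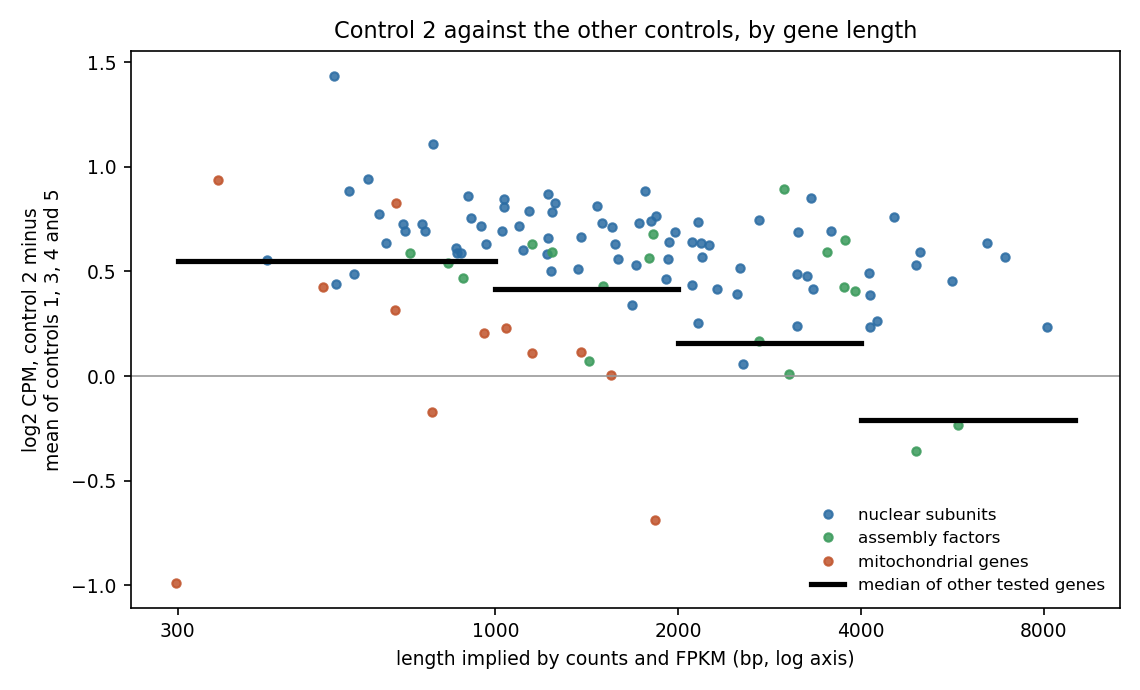
Log2 CPM of control 2 minus the mean of controls 1, 3, 4 and 5 (y axis) against the length implied by counts and FPKM (x axis, bp, log scale) for nuclear subunits, assembly factors and mitochondrial genes (points; mt-Atp8, whose length could not be derived, is left out), with the median of all other tested genes in 4 bands of length (bars). The bars run from 0.55 under 1000 bp to -0.21 over 4000 bp, and the nuclear subunits lie above 0 at every length.

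The comparison between the groups behaved alike within bands of length once control 2 was left out. The median log2 fold change of the nuclear subunits in that fit was -0.16, -0.14, -0.09 and -0.14 from the shortest to the longest band, and that of the other tested genes -0.03, -0.0024, 0.004 and -0.0023. With the length offset and all libraries, 78 of 79 subunits were below 0, against 50.7% of all tested genes. At an unadjusted p under 0.05, 37 were lower, against 6.08%, and 0 passed the adjusted threshold, against 0.919% in either direction. The smallest adjusted p were then 0.0860, for Cox7b and Cox7c, and 0.0992 for Cycs.

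Other short and abundant genes were set beside the members. The 80 tested cytosolic ribosomal protein genes had a median of -0.14 on the log2 scale with all libraries and 0.03 without control 2, and the 77 mitochondrial ribosomal protein genes -0.16 and -0.05. In the same fits the nuclear subunits had -0.28 and -0.14. Without control 2 the other lists of mitochondrial function lay nearer to 0: -0.04 for 14 citric acid cycle genes, -0.05 for 16 genes of the outer membrane and import, and -0.0058 for 27 genes that express mitochondrial DNA. With all libraries their medians were -0.11, -0.13 and -0.04, and they held 0 calls, with 1 gene, 0 genes and 1 gene lower at an unadjusted p under 0.05. The difference between lists was not tested.

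Among 13 regulators of mitochondrial genes, 0 passed the adjusted threshold with all libraries, 1 was lower and 1 higher at an unadjusted p under 0.05, and 1 was lower past it without control 2, where 0.986% of all tested genes were. This was Ppargc1a, the coactivator of the estrogen-related receptors. Controls 1 to 5 held 22.8, 17.7, 23.6, 25.1 and 24.2 CPM, and the libraries labelled cKO 19.3, 14.7, 18.2, 13.9 and 18.1 CPM. For this gene control 2 was the lowest control, below 3 of the libraries labelled cKO. For Ppargc1a the fit gave a log2 fold change of -0.43 (SE 0.121), at an edgeR adjusted p of 0.199. Without control 2 it was -0.51 (SE 0.103), with an adjusted p of 0.0239, while leaving out any other single library gave adjusted p of 0.151 to 0.429. Limma-voom gave an adjusted p of 0.00729. Of the related receptors, Esrra stood at -0.06 on the log2 scale (SE 0.0960), and at -0.01 without control 2. Esrrb, with 108.5 to 180.19 CPM, stood at 0.24 (SE 0.119), and at 0.18 without control 2. The factors Nrf1 and Gabpa stood at 0.08 (SE 0.0870) and 0.11 (SE 0.0602). None of these receptors and factors passed the threshold.

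In bulk tissue, fewer cells of a type and less RNA per cell cannot be told apart. Some lists of cell type markers differed between the groups. As a background, 52.3% of all tested genes lay below 0 and 0.543% were called lower. Without control 2 these shares were 51.6% and 0.986%. The 12 tested spiral ganglion neuron markers summed to 1394 to 1646 CPM in controls and 887 to 1652 CPM in the libraries labelled cKO, with 10 of 12 below 0 and 2 called lower, or 3 without control 2. The 10 markers of Schwann cells and satellite glia summed to 1208 to 1358 and 834 to 1289 CPM, with 8 below 0. The 10 hair cell markers summed to 192 to 287 and 156 to 202 CPM, with 7 below 0 and 1 called lower; without control 2, 5 were below 0 and 0 called. The 10 stria marginal cell markers summed to 972 to 1309 and 1243 to 1332 CPM, with 1 below 0 and called lower. The 12 macrophage markers summed to 367 to 433 and 412 to 499 CPM, with 6 below 0. For the 8 tested erythroid markers the sums were 814 to 3016 and 504 to 1345 CPM, with all 8 below 0, 1 called lower and control 2 highest, followed by control 5 at 2323. The 9 tested skeletal muscle markers, of a tissue rich in mitochondria, were low throughout, at 11.7 to 16.2 and 13.6 to 16.9 CPM. The brain list leaned in opposite directions by mean log2 level and by sum. Of its 11 tested genes 8 were below 0 and 4 were called lower, also 4 without control 2. These were the oligodendrocyte factors Olig1, with a log2 fold change of -2.75, and Olig2, with -2.04. The others were the water channel Aqp4, with -1.61, and the synaptic protein Cbln1, with -0.89. Which cells of this tissue express these genes was not measured. The mean log2 CPM over the list was 3.00 to 3.42 in controls and 2.36 to 2.79 in the libraries labelled cKO, with no overlap, whereas the sum, which the most abundant genes set, was 652 to 849 and 837 to 986 CPM. The part of cell composition in the members' values was not tested.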

How the data were processed

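The authors deposited whole-number read counts per Ensembl gene and FPKM values, both for all 10 libraries. The submitters' processing notes name mm10, STAR 2.5, HTSeq 0.61 and DESeq2, and the use of strand is not given in the sources used here. Per the labels' protocols, polyadenylated RNA was read as paired reads of 150 bases. Symbols and positions are from GENCODE M21 on GRCm38, which held 54495 of the 54532 gene IDs; the other 37 took 0.00763% of counts. Genotypes were compared on the deposited counts with edgeR 4.0.16 in R 4.3.3 (TMM factors, quasi-likelihood F-test, robust, genotype as the only term). Benjamini-Hochberg adjustment ran over all 18061 tested genes. The alternatives used edgeR, limma 3.58.1 and DESeq2 1.42.0. Simulated counts served to test the edgeR fit on its own, with the replicate number as a block, and with the length offset. Other steps were not tested in this way. SE were derived from the F statistic, and levels are log2 CPM with a prior count of 2. Libraries held 33.5 to 41.8 M counts. Of the tested nuclear members, 37 have exons that overlap another gene, so their reads may be shared. The members and lists were chosen with earlier results of these data known. Named members were those called; in each class those with the lowest and highest log2 fold change and the highest FPKM; Cycs, Ndufa4l2 and the tissue forms of complex IV; and the 5 with the smallest p without control 2. Ndufs1, Cox14, Ndufb4, Ndufb2, Ndufa4, Atp5g2, Atp5g3, mt-Nd5, mt-Cytb, Ppargc1a, Esrra, Esrrb, Nrf1 and Gabpa were chosen after their values were seen.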

Additional observations from a re-analysis of the deposited data

Results flagged for a closer look

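Control 2 stood apart from the other controls in 23 of 26 cases where the highest or lowest of 5 libraries lay farther from the rest than Dixon's 95% critical value of 0.710 allows. Of 76 groups of values examined, chance gives about 3.8 such cases, and the groups share libraries. In mean log2 CPM, control 2 was at 6.757 for the nuclear subunits, where the other controls held 6.062 to 6.215, and at 4.35 for the assembly factors, where they held 3.918 to 3.967. By complex it was at 6.287 for complex I, 7.511 for complex II, 7.07 for complex III, 6.483 for complex IV and 7.691 for complex V, each above the other controls.

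Single genes showed the same library apart. In complex I and its assembly, control 2 held 117.5 CPM of Ndufa2, 69.39 of Ndufa5, 20.54 of Ndufaf2, 36.72 of Ndufaf7 and 20.01 of Ndufaf8. In complex II it held 147.8 CPM of Sdhb and 158.1 of Sdhd, and in complex III 87.57 CPM of Uqcr10, 80.52 of Uqcr11 and 138.5 of Uqcrq. In complexes IV and V it held 10.55 CPM of Cox6b2, 3.414 of Cox7a1, 308.2 of Cox7a2l, 107.7 of Cox7b, 202.8 of Cox7c and 147.4 of Atp5g1. The same held for 69 of the tested members.

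The other 3 cases lay in the libraries labelled cKO. Cycs was low in cKO 5, at 43.87 CPM, against 55.33 to 57.99 CPM in the others of that group. Cox17 was high in cKO 5, at 4.305 CPM, against 1.888 to 2.497 CPM, and Ndufaf8 was high in cKO 2, at 16.59 CPM, against 11.54 to 12.78 CPM.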

How the results depend on the processing

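Across 24 alternative settings, limma-voom with quality weights called 2 nuclear members and every other setting 0. The median over the 13 mitochondrial genes turned to 0.0655 with the gene length offset and to 0.0707 when that was joined with the replicate block, and ran from -0.11 to -0.0025 with 1 library left out. For the nuclear subunits the median ran from -0.33 to -0.14 in those fits. Among named genes, the length offset turned Cox4i2 to 0.19, Cox7a2l to 0.0482 and mt-Co1 to 0.0655, and with the replicate block they were 0.21, 0.0481 and 0.0707. Limma-voom turned Cox17 to -0.0252, Cox4i2 to 0.20, Cox7a2l to 0.0116, Ndufaf7 to 0.0444 and mt-Nd4l to -0.0002. FPKM with a pseudocount of 0.1 or 1 turned Cox4i2 to 0.0792 or 0.0541. Leaving out control 2 together with the length offset, a setting chosen after seeing the data, gave Cox4i2 0.32, Cox6b2 0.0002, Cox7a2l 0.0809 and Ndufaf7 0.0382. With 1 library left out, Cox17 ran from -0.17 (without cKO 5) to 0.19, Cox4i2 from -0.14 to 0.28 (without control 2), Cox7a2l from -0.146 to 0.0606 (without control 2), Ndufaf7 from -0.153 to 0.0392 (without control 2), mt-Co1 from -0.069 to 0.0294 (without cKO 3) and mt-Nd4l from -0.0017 (without control 2) to 0.236. The cause was not tested.

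The replicate numbers are shared between groups, but the labels tie them to no litter or day. Same-numbered libraries deviated together with correlations of 0.0232 to 0.18, and 6 of 10 libraries correlated best with their own number. With the replicate block, 57 of 79 nuclear subunits were lower at an unadjusted p under 0.05, against 6.82% of all tested genes, in place of 37 against 5.62%, 0 members were called, and Cox4i2 turned to 0.068. Members with few counts, such as Cox17, Cox7a1 and mt-Atp8, are limited by depth.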
